A study of Homo sapiens with 9 samples.

Results

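The Kruppel-like factors (KLFs) are DNA-binding proteins that recognise GC boxes and CACCC elements through zinc fingers at their C-terminal end. The genes described here are KLF2, KLF3, KLF4, KLF5, KLF6, KLF9, KLF10, KLF11, KLF13 and KLF16, the 10 members chosen by name from the family among the 26475 gene symbols of the count table. The rule uses names and no measured values, although the members were proposed with earlier results of these data known, and all 10 passed the filter on low counts. Their mRNA was measured in A375, an established human BRAF-mutant melanoma cell line, after 24 h in the solvent DMSO, in 5 µM TP-472 or in 10 µM TP-472, with 3 libraries per group described as biological replicates. The compound TP-472 inhibits BRD7 and BRD9, bromodomain proteins found in SWI/SNF chromatin remodelling complexes. All libraries came from 1 cell line, so the p-values below describe the spread between cultures of that line. In bulk RNA, fewer cells expressing a gene and less RNA per cell cannot be told apart.

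KLF proteins share their DNA-binding end and differ in the rest of the protein, which recruits coactivators or corepressors. KLF2, KLF4, KLF5 and KLF6 are mostly known as activators, although KLF4 can also repress. KLF3 is a repressor that binds the corepressor CtBP, and KLF9, KLF10, KLF11, KLF13 and KLF16 carry a short motif that binds the corepressor SIN3A. Several members are early-response genes that are switched on by shear stress, serum, TGF-beta or glucocorticoids.

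The libraries held 42483091 to 51298130 expected counts. The lineage factor SOX10 lay between 363 and 426 CPM (read counts scaled to a common library size with TMM factors), whereas TYR, which encodes the pigment enzyme tyrosinase, was at 0 in all 9 libraries. Markers of leukocytes, endothelium and epithelium reached at most 2.12 CPM. Of 3 markers of a neural crest-like state, NGFR and SOX9 were called lower at both doses, and their part in the KLF results was not tested. Replicate 1 of the 10 µM group stood apart from its 2 companions, and fold changes of the members that rest on it are given with and without it. Ranks of the members by level are given with it only.

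The promoters of the members that were called or differed between the doses are shown first, because GC boxes and CACCC elements are the letters that KLF proteins themselves recognise. Of the 10 members, 8 had an entry in the RefSeq promoter table (GRCh38.p14), with 10 windows of 250 bases upstream of a start. KLF3 and KLF10 had none. Each sequence is printed 5′ to 3′ on the gene's strand and covers the longest stretch free of the gene's own annotated exons. Capitals mark letters that matched a searched motif on either strand.
KLF2, chr19:16324576-16324816, plus strand: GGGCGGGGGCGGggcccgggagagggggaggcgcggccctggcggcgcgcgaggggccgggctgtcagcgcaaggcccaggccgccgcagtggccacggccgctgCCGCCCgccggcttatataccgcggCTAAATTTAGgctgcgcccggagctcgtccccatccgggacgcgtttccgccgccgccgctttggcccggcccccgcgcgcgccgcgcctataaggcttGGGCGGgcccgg
KLF11, downstream start, chr2:10043971-10044174, plus strand: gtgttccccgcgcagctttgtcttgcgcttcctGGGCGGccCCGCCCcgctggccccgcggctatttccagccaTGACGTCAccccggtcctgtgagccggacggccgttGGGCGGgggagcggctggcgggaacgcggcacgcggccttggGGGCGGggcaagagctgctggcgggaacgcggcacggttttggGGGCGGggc
KLF13, chr15:31326585-31326834, plus strand: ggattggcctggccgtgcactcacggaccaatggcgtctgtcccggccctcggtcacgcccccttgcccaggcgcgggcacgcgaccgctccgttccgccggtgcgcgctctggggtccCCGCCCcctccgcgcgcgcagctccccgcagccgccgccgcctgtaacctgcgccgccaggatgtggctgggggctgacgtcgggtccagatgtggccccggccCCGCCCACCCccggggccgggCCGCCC
KLF4, chr9:107489770-107490019, minus strand: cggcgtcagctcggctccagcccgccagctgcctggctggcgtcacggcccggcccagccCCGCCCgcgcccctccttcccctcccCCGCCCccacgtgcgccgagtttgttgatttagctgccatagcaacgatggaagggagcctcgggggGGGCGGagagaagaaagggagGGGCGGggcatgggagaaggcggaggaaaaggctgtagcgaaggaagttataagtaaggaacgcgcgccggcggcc
KLF6, chr10:3785282-3785459, minus strand: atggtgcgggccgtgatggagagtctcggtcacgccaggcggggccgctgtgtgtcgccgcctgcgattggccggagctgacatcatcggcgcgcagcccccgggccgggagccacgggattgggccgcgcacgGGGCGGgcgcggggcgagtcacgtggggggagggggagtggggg

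The GC box (GGGCGG) was the motif these windows had most in common. It occurred in 8 of the 10 member windows and in 42.6% of the 35116 windows of all genes. The whole KLF2 and KLF4 windows each held 4 GC boxes, against a median of 0 over all windows. The G and C content of the member windows ran from 32.4% for KLF9 and 40.8% for a KLF5 window to 80.0% for KLF2 and 86.4% for KLF16, against a median of 58.0% over all windows. The CACCC element (CCACCC) occurred in 31.3% of all windows and in 1 member window, that of KLF13, from -23 to -18 relative to the start, where it overlapped a GC box. A MEF2-type element (CTA, then NNNN, then TAG) was present in 2.36% of all windows and in 2 member windows. It stood in KLF2 from -120 to -111, as CTAAATTTAG, and in the downstream KLF11 window from -18 to -9, outside the printed stretch. MEF2 factors, acting below the kinase ERK5, are known regulators of KLF2. A cAMP response element (TGACGTCA), found in 1.65% of all windows, lay in the printed KLF11 window from -176 to -169. The AP-1 element (TGANTCA) was in none of the member windows and in 6.57% of all windows, and the TATA box (TATAAA) was in 1 member window, a KLF5 window, and in 10.7% of all windows. These matches describe letters and were not tested for binding.

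At 10 µM, KLF2 rose and KLF11 and KLF13 fell. A gene was called when its fold change was at least 1.5 and its adjusted p was under 0.05, in the quasi-likelihood test of edgeR, adjusted by Benjamini-Hochberg across all 16417 genes that were tested. By this rule 3 of the 10 members were called at 10 µM against DMSO, beside 19.1% of all genes tested (8.57% higher and 10.5% lower). At 5 µM, 1 member was called, KLF11, which was lower, beside 4.87% of all genes (2.14% higher and 2.72% lower). Between the doses, 1 member was called, KLF2, which was higher at 10 µM, beside 4.01% of all genes (1.42% higher and 2.59% lower). The median log2 fold change of the members was -0.37 at 5 µM and -0.13 at 10 µM, whereas the medians over all genes were 0.0054 and 0.011.

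**Figure D1:**
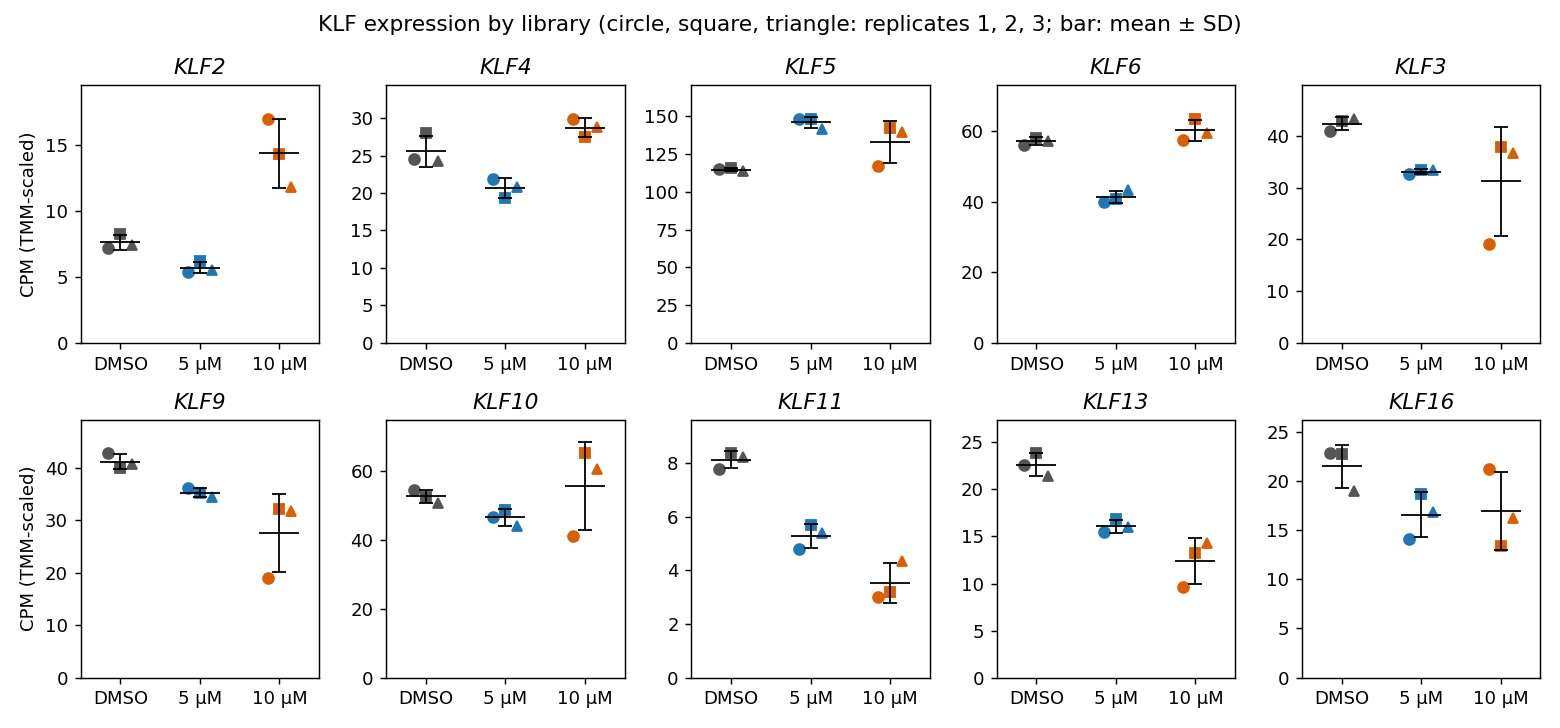
Expression of the 10 KLF genes in CPM (vertical axis, from 0, a separate scale for each gene) in the 3 libraries of DMSO, 5 µM and 10 µM TP-472, with circles, squares and triangles for replicates 1, 2 and 3 and bars for the mean ± SD. KLF2 lay between 11.8 and 17.0 CPM at 10 µM, above all DMSO libraries, and KLF11 was lower at each dose than in every DMSO library.

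KLF2, a shear-stress-responsive activator known for keeping endothelial and T cells quiescent, was the member with the largest rise. It measured 7.18, 8.21 and 7.40 CPM in DMSO, 5.37, 6.16 and 5.52 CPM at 5 µM, and 17.0, 14.3 and 11.8 CPM at 10 µM. All 5 µM libraries lay below the DMSO libraries and all 10 µM libraries lay above them, an order held by 42 of the 16417 genes (0.256%) and by no other member. The log2 fold change at 10 µM against DMSO was 0.91 (SE 0.15, 95% interval 0.59 to 1.24, adjusted p = 0.00111 by edgeR), a 1.89-fold rise. At 5 µM the log2 fold change was -0.42 (SE 0.15, 95% interval -0.75 to -0.09, adjusted p = 0.110), which did not pass the test. Over the alternatives this adjusted p ranged from 0.0144, without 10 µM replicate 1, to 0.330, without DMSO replicate 2, both by edgeR. The 2 doses differed by 1.33 on the log2 scale (SE 0.15, 95% interval 1.00 to 1.66, adjusted p = 0.000696), or 2.52-fold. Without 10 µM replicate 1, the highest library, the log2 fold change at 10 µM was 0.77 and the difference between the doses was 1.19, and both were still called.

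KLF4, an activator and repressor best known as a reprogramming factor and for its role in epithelial barrier formation, was lower at 5 µM than at 10 µM. Its values were 24.5, 28.0 and 24.3 CPM in DMSO, 21.9, 19.3 and 20.8 CPM at 5 µM, and 29.9, 27.5 and 28.8 CPM at 10 µM. The 5 µM libraries lay below all DMSO libraries, while the 10 µM and DMSO libraries overlapped. Neither dose passed the test against DMSO, with log2 fold changes of -0.31 (95% interval -0.51 to -0.11, adjusted p = 0.0611) and 0.17 (95% interval -0.03 to 0.37, adjusted p = 0.185). The difference between the doses was 0.48 (SE 0.09, adjusted p = 0.0122 by edgeR), or 1.39-fold, below the 1.5-fold limit. Over the alternatives, by edgeR, DESeq2 or limma-voom, its adjusted p ranged from 4.56e-05 to 0.0662, so it did not always pass.

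KLF6, a zinc finger factor induced by serum and injury, followed the same order. It measured 56.0, 58.1 and 57.3 CPM in DMSO, 39.9, 40.7 and 43.3 CPM at 5 µM, and 57.5, 63.6 and 59.6 CPM at 10 µM. The 5 µM libraries were below all others, and the 10 µM libraries overlapped DMSO. At 5 µM the log2 fold change was -0.47 (SE 0.07, 95% interval -0.63 to -0.30, adjusted p = 0.00334 by edgeR), a fold of 0.723 that stayed inside the 1.5-fold limit. At 10 µM against DMSO it was 0.08 (95% interval -0.09 to 0.24, adjusted p = 0.465). The difference between the doses was 0.54 (SE 0.07, adjusted p = 0.00207), or 1.46-fold.

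KLF5, an activator of proliferation in epithelial and smooth muscle cells, was the most abundant member and the one member higher at 5 µM. It measured 115, 116 and 114 CPM in DMSO, 148, 148 and 142 CPM at 5 µM, and 117, 142 and 140 CPM at 10 µM. Every treated library was above every DMSO library, but 10 µM replicate 1 was close to DMSO. The log2 fold change at 5 µM was 0.35 (SE 0.08, 95% interval 0.16 to 0.53, adjusted p = 0.0263 by edgeR), or 1.27-fold. Without any 1 DMSO or 5 µM library it did not pass (adjusted p 0.0767 to 0.120), nor with the replicate block (0.0501). At 10 µM the log2 fold change was 0.21 (SE 0.08, adjusted p = 0.0738), and without 10 µM replicate 1 it was 0.29 (adjusted p = 2.27e-05). The doses did not pass the test against each other (-0.14, 95% interval -0.32 to 0.05, adjusted p = 0.339).

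KLF11, a TGF-beta-inducible repressor, was the member that fell most. It measured 7.77, 8.35 and 8.23 CPM in DMSO, 4.78, 5.67 and 5.38 CPM at 5 µM, and 3.00, 3.17 and 4.36 CPM at 10 µM. The 3 groups did not overlap, and the level was lower at each higher dose. The log2 fold change was -0.62 at 5 µM (SE 0.17, 95% interval -0.99 to -0.25, adjusted p = 0.0426) and -1.21 at 10 µM (SE 0.17, 95% interval -1.59 to -0.83, adjusted p = 0.000495 by edgeR), folds of 0.65 and 0.433. The call at 10 µM held under all 18 alternatives tried, whereas the call at 5 µM was lost in 8 of 18, among them the fit without any 1 DMSO or 5 µM library (adjusted p 0.0964 to 0.163). The further drop from 5 to 10 µM, -0.59 (SE 0.17, 95% interval -0.96 to -0.21), had an adjusted p of 0.0617. Without 10 µM replicate 3, the highest of its group, that difference was -0.77 (adjusted p = 0.0183) and was called. Exons of an opposite-strand gene, AC104794.4, cover 9.07% of the exonic length of KLF11, and no source used here says whether reads were counted by strand.

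KLF13, a repressor and activator known from T cells, where it controls the chemokine gene CCL5, also fell. It measured 22.6, 23.8 and 21.5 CPM in DMSO, 15.4, 16.8 and 16.0 CPM at 5 µM, and 9.61, 13.3 and 14.3 CPM at 10 µM. As for KLF11, no 2 groups overlapped. The log2 fold change was -0.49 at 5 µM (SE 0.14, 95% interval -0.80 to -0.19, adjusted p = 0.0486), a fold of 0.71 inside the 1.5-fold limit. Without any 1 DMSO or 5 µM library it did not pass (adjusted p 0.117 to 0.182 by edgeR). At 10 µM the log2 fold change was -0.87 (SE 0.14, 95% interval -1.18 to -0.56, adjusted p = 0.00106 by edgeR), a fold of 0.548. Without 10 µM replicate 1 it was -0.72, still called. The doses differed by -0.38 (95% interval -0.68 to -0.07, adjusted p = 0.126).

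KLF9, a glucocorticoid- and thyroid hormone-responsive repressor, came close to a call at 10 µM. It measured 42.8, 40.0 and 40.7 CPM in DMSO, 36.2, 35.2 and 34.4 CPM at 5 µM, and 19.1, 32.1 and 31.7 CPM at 10 µM. The groups did not overlap, and 10 µM replicate 1 was far below its companions. At 10 µM the log2 fold change was -0.57 (SE 0.17, 95% interval -0.95 to -0.20, adjusted p = 0.0238 by edgeR), a fold of 0.672, just inside the 1.5-fold limit. It was -0.37 without 10 µM replicate 1. Without replicate 2 or replicate 3 of that group it was -0.70 or -0.69 and was called. By edgeR, it did not pass the adjusted p without any 1 DMSO library (0.0579 to 0.0750) or with only the 2 groups compared (0.0676). At 5 µM the log2 fold change was -0.22 (adjusted p = 0.481).

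KLF10, a TGF-beta early-response gene, measured 54.6, 52.6 and 50.9 CPM in DMSO, 46.9, 48.9 and 44.1 CPM at 5 µM, and 41.2, 65.3 and 60.7 CPM at 10 µM. At 10 µM, replicate 1 was below DMSO and the other two were above it, so that the log2 fold change of 0.08 (95% interval -0.25 to 0.41, adjusted p = 0.715) averaged opposite values. Without replicate 1 it was 0.25 (adjusted p = 0.00262 by edgeR), and without replicate 2 it was -0.053. At 5 µM it was -0.18 (SE 0.15, adjusted p = 0.535).

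KLF3, the CtBP-binding repressor, measured 41.0, 42.9 and 43.4 CPM in DMSO, 32.6, 33.4 and 33.4 CPM at 5 µM, and 19.0, 37.8 and 36.8 CPM at 10 µM. All 6 treated libraries were below DMSO, and 10 µM replicate 1 lay far below its companions. The log2 fold changes were -0.36 at 5 µM (SE 0.21, 95% interval -0.82 to 0.11, adjusted p = 0.341) and -0.44 at 10 µM (SE 0.21, 95% interval -0.90 to 0.02, adjusted p = 0.128). Without 10 µM replicate 1 the value at 10 µM was -0.19 (adjusted p = 0.0180 by edgeR), inside the 1.5-fold limit. The difference between the doses was -0.09, and 0.17 without 10 µM replicate 1.

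KLF16, a SIN3A-binding repressor with few known functions, measured 22.8, 22.7 and 18.9 CPM in DMSO, 14.1, 18.7 and 16.8 CPM at 5 µM, and 21.2, 13.4 and 16.2 CPM at 10 µM. Here 10 µM replicate 1 was the highest of its group and overlapped DMSO. Neither dose passed the test, with log2 fold changes of -0.38 (SE 0.17, 95% interval -0.76 to 0.00, adjusted p = 0.206) and -0.34 (SE 0.17, adjusted p = 0.146). The second value was -0.54 (adjusted p = 0.0019 by edgeR) without 10 µM replicate 1. Exons of an opposite-strand gene, AC012615.3, cover 16.35% of its exonic length.

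**Figure D2:**
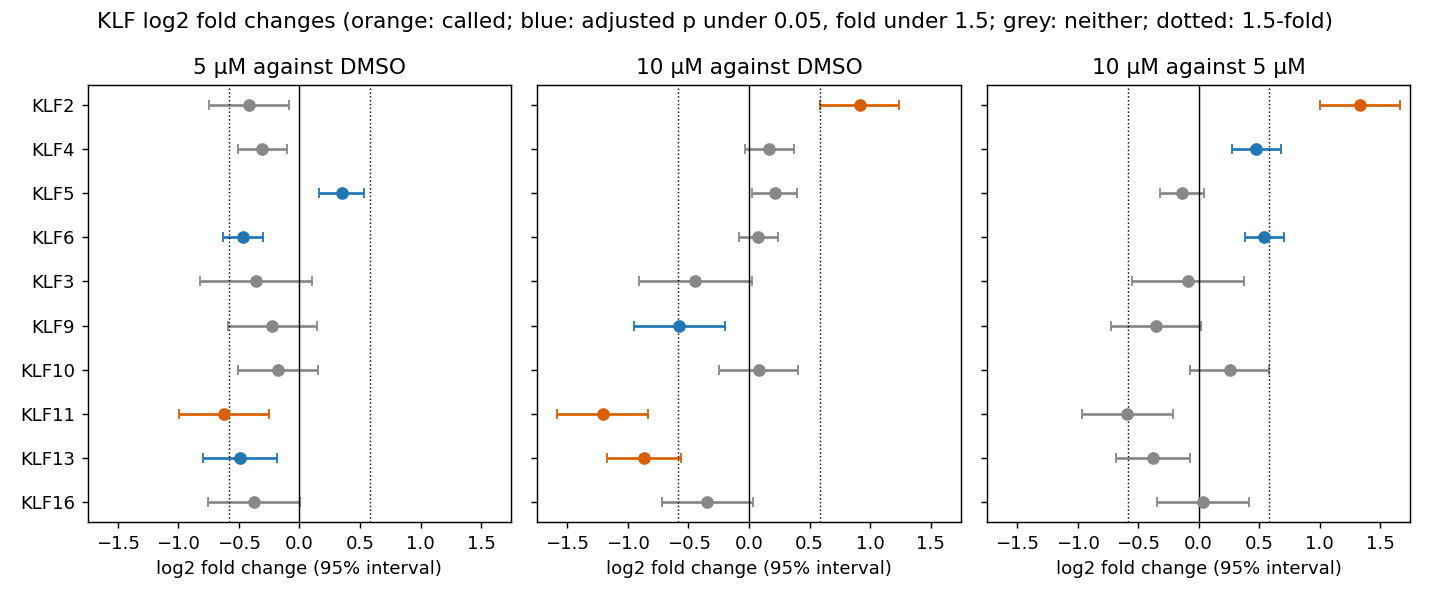
Log2 fold changes of the 10 KLF genes with 95% intervals (horizontal axis) for each dose compared with DMSO and for the higher dose compared with the lower. Orange points were called, blue points passed the adjusted p alone, grey points passed neither, and dotted lines mark 1.5-fold. KLF2 at 0.91, KLF11 at -1.21 and KLF13 at -0.87 were called at 10 µM.

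The members' positions against the DMSO libraries differed between the doses. At 5 µM, 9 members lay wholly below the DMSO libraries and 1, KLF5, wholly above. Of all genes, 48.7% did not overlap DMSO at 5 µM, 25% below it and 23.7% above. At 10 µM, 4 members lay below, 2 above and 4 overlapped, beside 49.3% of genes without overlap (26% below and 23.4% above). Between the doses, 3 members lay above, 3 below and 4 overlapped, beside 28.3% of genes without overlap (12.1% above and 16.2% below). The 2 comparisons against DMSO share the DMSO libraries. Taking the adjusted p alone, with no fold limit, 1 member was higher and 3 were lower at 5 µM (10.2% of all genes passed, 4.4% higher and 5.81% lower). The same numbers of members passed at 10 µM (34.3% of all genes, 16.4% higher and 18% lower). Between the doses, 3 members passed, KLF2, KLF4 and KLF6, all higher at 10 µM, beside 8.4% of all genes (2.87% higher and 5.53% lower). The log2 fold changes of KLF2, KLF4, KLF6 and KLF10 were below 0 at 5 µM and above 0 at 10 µM, as were those of 10.7% of all genes. KLF2 was the 1 member of these that was also called between the doses, as 0.329% of all genes were.

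Without 10 µM replicate 1 more genes passed the test. All 10 members then passed the adjusted p at 5 µM by edgeR, KLF5 higher and the other 9 lower (adjusted p 3.01e-06 to 0.0211), beside 34.2% of the 16745 genes tested in that fit (16.5% higher and 17.6% lower). At 10 µM 3 were higher and 5 lower, beside 48.8% of genes (23% higher and 25.8% lower), and between the doses 4 were higher and 1 lower, beside 24.2% (8.8% higher and 15.4% lower). With the 1.5-fold limit, still 1 member was called at 5 µM, beside 7.41% of genes, 3 at 10 µM, beside 19.2%, and 1 between the doses, beside 5.18%. The library held 47646592 counts, within the range of the other 8.

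The departure of 10 µM replicate 1 from its companions differed between members, and is given here beside the base composition of their transcripts. Its level against the mean of replicates 2 and 3 was highest, on the log2 scale, for KLF16 (0.52) and KLF2 (0.38), whose longest coding transcripts hold 67.79% and 65.16% G and C. It was lowest for KLF3 (-0.97), at 41.53%, and KLF9 (-0.74), at 46.32%. Members of similar composition departed unequally, with KLF6 at -0.10 and 45.92%, KLF5 at -0.27 and 47.0%, and KLF10 at -0.61 and 47.23%. KLF13, the longest of these transcripts, departed by -0.52 at 57.61%. The part of base composition and transcript length in the differences above was not tested. KLF2, KLF11 and KLF13 were called at 10 µM both with and without that library.

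**Figure D3:**
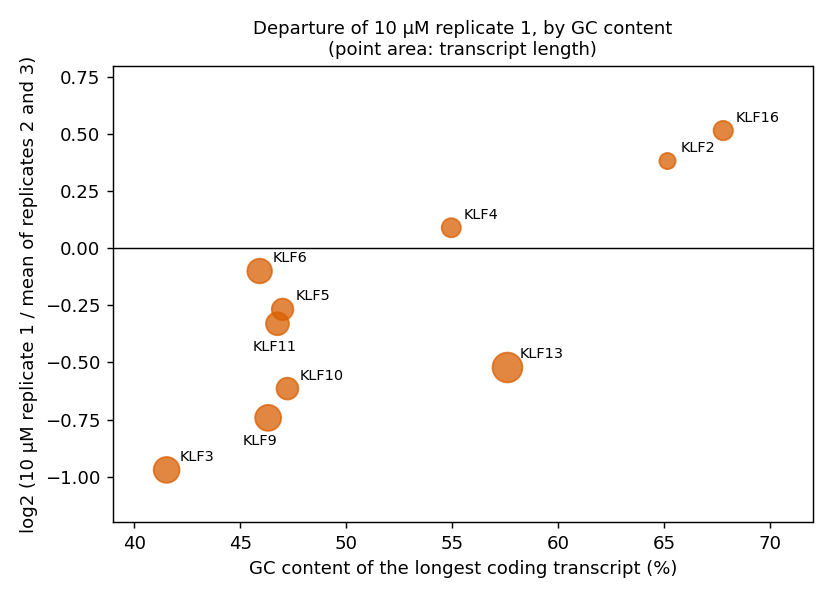
Level of each KLF gene in 10 µM replicate 1 against the mean of replicates 2 and 3 (vertical axis, log2) by the GC content of its longest coding transcript (horizontal axis, percent), with point area for transcript length. KLF16 and KLF2 were higher in replicate 1, by 0.52 and 0.38, KLF3 was lowest at -0.97, and the 5 members between 45% and 48% GC were spread from -0.74 to -0.10.

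Between genes, levels were compared per kilobase of exon (GENCODE release 29, GRCh38). The length joins the exons of all annotated transcripts of a gene, and the annotation used for counting is not known. For KLF4 it is 3659 bases, beside 2813 for the longest coding transcript, and for KLF9 it is 5175 by either measure. The order of genes at similar levels depends on this choice, and other lengths were not tested. In DMSO, KLF5 (chr13:73054976-73077542) was highest at 29.5 ± 0.236 CPM per kb (SD, n = 3), followed by KLF10 at 13.2 ± 0.453 and KLF6 (chr10:3775996-3785281) at 9.31 ± 0.176. KLF9 (chr9:70384597-70414624) followed at 7.95 ± 0.280. KLF16 (chr19:1852399-1863568), KLF4 (chr9:107484852-107490482) and KLF3 (chr4:38664196-38701042) stood at 7.27, 6.99 and 6.73 CPM per kb, and neighbours among these overlapped over their libraries. KLF2 (chr19:16324817-16327874) stood at 3.77 ± 0.268, KLF13 (chr15:31326855-31435665) at 2.41 ± 0.125 and KLF11 (chr2:10042849-10054836) was lowest at 1.77 ± 0.0673. At 10 µM, KLF2 reached 7.10 ± 1.29 CPM per kb and moved from rank 8 to rank 5, whereas KLF9, at 5.34 ± 1.43, moved from rank 4 to rank 7. Both means include 10 µM replicate 1. In that library KLF9 measured 19.1 CPM, beside 32.1 and 31.7 CPM in replicates 2 and 3. KLF2 measured 17.0 CPM, beside 14.3 and 11.8 CPM. Ranks without that library were not computed, so the rank of KLF9 at 10 µM may depend on it. KLF5, KLF10, KLF13 and KLF11 kept ranks 1, 2, 9 and 10 in all 3 groups.

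Of 8 other KLF genes listed, 7 were in the table and 5 were tested. At 5 µM edgeR called none of them, beside 4.87% of all genes, and none had an unadjusted p under 0.05. DESeq2 and limma-voom also called none of them. At 10 µM 2 of the 5 were called, beside 19.1% of all genes. KLF15 rose and KLF12 fell. KLF15, a glucocorticoid-responsive metabolic regulator, measured 5.41, 3.48 and 3.46 CPM at 10 µM against 2.45 ± 0.282 in DMSO (SD, n = 3), with a log2 fold change of 0.75 (SE 0.22, adjusted p = 0.0250 by edgeR). Without 10 µM replicate 1, its highest library, it was 0.50 (adjusted p = 0.0674) and the call was lost. KLF12, a CtBP-binding repressor, measured 13.0, 26.9 and 23.5 CPM at 10 µM against 33.3 ± 2.03, with a log2 fold change of -0.66 (SE 0.21, adjusted p = 0.0358), and without replicate 1 it was -0.40, inside the fold limit. KLF7 measured 17.5 ± 0.284 CPM in DMSO and 22.9 ± 3.39 CPM at 10 µM (SD, n = 3), and its log2 fold change of 0.39 (SE 0.12, adjusted p = 0.0269 by edgeR) stayed inside the fold limit. KLF8 was at 0 in all libraries.

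The related SP factors bind GC boxes too, and SP1 fell at 10 µM. SP1 measured 126, 126 and 130 CPM in DMSO and 47.9, 82.2 and 76.0 CPM at 10 µM, with no overlap. The log2 fold change was -0.89 (SE 0.16, adjusted p = 0.00236 by edgeR), and -0.69 without 10 µM replicate 1, still called. It was the 1 SP gene called at 10 µM among 7 tested, beside 19.1% of all genes (10.5% lower). At 5 µM none of the SP genes was called by edgeR, DESeq2 or limma-voom, with 1 at an unadjusted p under 0.05. Of all genes, 4.87% were called at 5 µM by edgeR. SP3, a close relative, measured 89.3 ± 1.83 CPM in DMSO and 88.2 ± 12.6 CPM at 10 µM (SD, n = 3).

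Of the 9 corepressors and coactivators of KLF proteins, none was called at either dose by edgeR, DESeq2 or limma-voom. By edgeR, 4.87% of all genes were called at 5 µM and 19.1% at 10 µM. At 10 µM all 9 log2 fold changes were below 0, with a median of -0.22, and 5 passed the adjusted p alone (also 5 at an unadjusted p under 0.05), all lower, beside 34.3% of all genes passing and 18% passing lower. For EP300, CREBBP and SIN3B, named after their values were seen, only 10 µM replicate 1 lay below the DMSO mean. EP300 measured 33.8, 74.2 and 73.9 CPM against 64.6, CREBBP 48.5, 90.3 and 84.9 against 83.9, and SIN3B 60.0, 75.7 and 74.7 against 73.7. For the other cofactors every 10 µM library lay below it. SIN3A, the corepressor bound by KLF9, KLF10, KLF11, KLF13 and KLF16 and singled out here after its values were seen, measured 100 ± 2.01 CPM in DMSO and 68.0 ± 11.9 CPM at 10 µM (SD, n = 3; adjusted p = 0.00472 by edgeR). Its 10 µM libraries measured 54.5, 77.1 and 72.5 CPM, with replicate 1 the lowest. At 5 µM, 3 of the 9 had an unadjusted p under 0.05, all lower.

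Among 11 upstream regulators, 2 were called at 10 µM, both lower, beside 10.5% of all genes called lower. TGFBR2, a TGF-beta receptor subunit, measured 132 ± 6.58, 108 ± 8.34 and 61.4 ± 16.6 CPM in DMSO, 5 µM and 10 µM (SD, n = 3). Its log2 fold change was -1.11 at 10 µM (SE 0.17, adjusted p = 0.000936 by edgeR) and -0.81 between the doses (adjusted p = 0.0191). The call between the doses was lost without any 1 of the 5 µM libraries and with only the 2 groups compared. SMAD3, which carries the receptor's signal to the nucleus, measured 165 ± 2.54, 117 ± 3.18 and 95.9 ± 9.44 CPM, with a log2 fold change of -0.79 at 10 µM (SE 0.08, adjusted p = 7.31e-05). Without 10 µM replicate 1 both were still called, at -0.90 and -0.71. The other 9 were not called at 10 µM. They include TGFBR1, SMAD2 and SMAD4 of the same pathway, with log2 fold changes of -0.06, 0.03 and -0.14, and MAP2K5, MAPK7 (ERK5), MEF2A, MEF2C, MEF2D and NR3C1 (the glucocorticoid receptor). At 10 µM, TGFBR1 measured 19.2, 30.5 and 34.5 CPM (DMSO mean 29.2), SMAD2 79.6, 89.3 and 88.3 (83.8), and SMAD4 45.5, 52.9 and 60.6 (58.6). Replicate 1 was the lowest for each, so these log2 fold changes averaged unlike libraries. At 5 µM none of the 11 was called by edgeR, DESeq2 or limma-voom, beside 4.87% of all genes by edgeR, with 2 at an unadjusted p under 0.05. Of the 11, 1 passed the adjusted p at 5 µM, SMAD3, beside 10.2% of all genes. Its log2 fold change there was -0.50 (SE 0.08, adjusted p = 0.00423 by edgeR), a fold of 0.709 inside the 1.5-fold limit.

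Genes described as KLF targets moved in both directions. Of 11 listed, 10 were tested, and at 10 µM 3 rose and 2 fell, beside 8.57% of all genes called higher and 10.5% called lower. CDKN1A, which encodes the cyclin-dependent kinase inhibitor p21 and is also a p53 target, measured 158 ± 3.94, 549 ± 11.9 and 775 ± 109 CPM in the 3 groups (SD, n = 3), with log2 fold changes of 1.80 (SE 0.10) and 2.30 (SE 0.10, adjusted p = 3.12e-07 by edgeR). S1PR1, a lymphocyte egress receptor activated by KLF2, measured 7.58 ± 0.362, 10.3 ± 0.647 and 14.6 ± 2.76 CPM and rose by 0.95 (SE 0.14, adjusted p = 0.000756) at 10 µM. ENG, a TGF-beta coreceptor activated by KLF6, fell from 124 ± 4.10 to 76.2 ± 2.23 CPM at 10 µM, a log2 fold change of -0.71 (SE 0.07, adjusted p = 6.19e-05). COL1A1, a collagen chain, had a log2 fold change of -1.40 at 10 µM (SE 0.14, adjusted p = 6.4e-05) and -1.32 at 5 µM. PDGFA was the third that rose at 10 µM, and at 5 µM CCND1, THBD and CDKN1A rose and COL1A1 fell, beside 2.14% and 2.72% of all genes. PDGFA, CCND1 and THBD are named after their values were seen. THBD had few reads, at 0.441 ± 0.0874 CPM in DMSO and 1.26 ± 0.257 CPM at 5 µM (SD, n = 3).

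**Figure D4:**
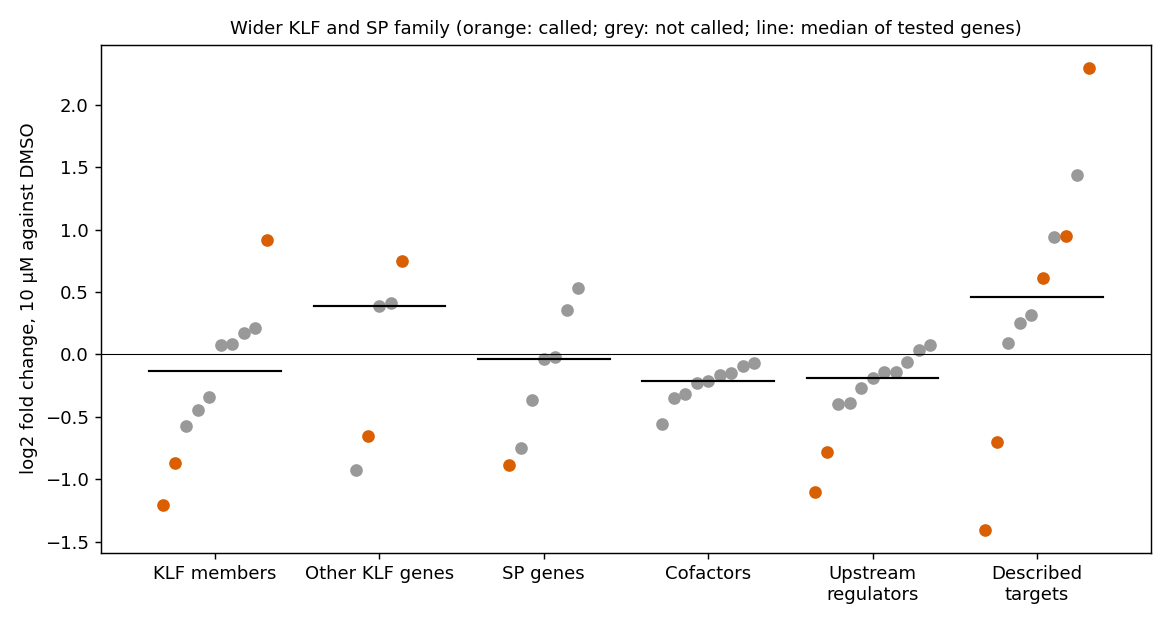
Log2 fold changes at 10 µM against DMSO (vertical axis) of the tested genes in the KLF members, the other KLF genes, the SP genes, the KLF cofactors, the upstream regulators and the described targets, with a line at each list's median. Orange points were called and grey points were not. The cofactors, with a median of -0.22 and no call beside 19.1% of all genes called, all lay below 0. For EP300, CREBBP and SIN3B only 10 µM replicate 1 was below the DMSO mean.

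The genes whose pattern over the 9 libraries was most like that of KLF2 were UPP1, IL6 and MESDC2, with Pearson r of 0.98, 0.98 and 0.97 on log2 CPM among 13677 genes compared. UPP1 went from a mean of 16.0 CPM in DMSO to 11.5 at 5 µM and 27.1 at 10 µM, and IL6 from 2.17 to 1.71 and 6.78, the same order as for KLF2. For KLF11 they were PCSK1, HSP90B1 and PNPLA6, each with r of 0.99. PCSK1 went from 11.03 to 5.97 and 3.83 CPM, and HSP90B1 from 1092 to 919 and 768 CPM. These correlations all rest on the same 9 libraries in 3 groups and are a description.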

How the data were processed

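A375 cells were treated with DMSO or TP-472 for 24 h, and mRNA was sequenced in 9 libraries. The labels describe oligo-dT selection and strand-specific libraries, whereas the series' design text describes ribosomal depletion. A single table with the expected count of each gene symbol was deposited by the authors. Per the submitters' processing notes, RSEM 1.2.15, Bowtie2 2.1.0 and the build hg38 were used. No source used here gives the annotation, any filter or the use of strand in counting. Every column of the table was matched to a sample, and 0 columns were left unused.

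Expected counts were rounded to whole numbers. The rows were filtered with filterByExpr, which left 16417 genes. They were scaled with TMM factors and tested with the quasi-likelihood F test of edgeR 4.0.16 in R 4.3.3, in 1 fit of the 3 groups, with p-values adjusted by Benjamini-Hochberg over those genes. The threshold was 1.5-fold with an adjusted p under 0.05. CPM use the TMM-scaled library sizes, and depth was 42483091 to 51298130 counts per library. DESeq2 1.42.0 and limma-voom (limma 3.58.1), other scaling factors, other filters, leaving out each library, a replicate block, only the 2 groups compared and no fold limit were alternatives. The scripts were tested on simulated data. Gene models came from GENCODE release 29 and promoters from RefSeq.

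The members and lists were chosen with earlier results of these data known. All members are named. Of each other list, up to 4 genes with the smallest p among those called at 10 µM are named, and for KLF2 and KLF11 the 3 genes with the highest Pearson r. Other list genes, among them KLF7, KLF8, SP2, SP3, the cofactors and the upstream regulators that were not called, are named outside this rule. Replicate numbers showed no clear pairing of the libraries. Correlations of the deviations from group means of same-numbered libraries were -0.049 to 0.032 over 9 pairs, beside -0.033 to 0.045 for other pairs. Such values cannot exclude a pairing. The study's statistics section gives an unpaired Student's test as its general method and does not mention the sequencing data.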

Additional observations from a re-analysis of the deposited data

Results flagged for a closer look

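KLF2 was singled out because its response differed between the doses. Every 5 µM library lay below the DMSO libraries and every 10 µM library above them, and the direct test of 10 µM against 5 µM gave a log2 fold change of 1.33 (adjusted p = 0.000696 by edgeR). Of the 2 changes against DMSO, the rise at 10 µM passed the test and the lower level at 5 µM (adjusted p = 0.110) did not. The adjusted p at 5 µM depended on the libraries used, from 0.0144 to 0.330 by edgeR.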

How the results depend on the processing

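The count of KLF members called at 10 µM, 3 in the main test, ranged from 3 to 4 under all alternatives tried, the fourth being KLF9. At 5 µM the main count of 1 became 0 with no filter and 0 with the replicate block (7 and 6 members at an unadjusted p under 0.05 by edgeR), 4 with no fold limit, and 0 to 1 when 1 library was left out (0 without any DMSO or 5 µM library), since the 1 call, KLF11, had an adjusted p of 0.0426. Between the doses the main count of 1 became 3 with no fold limit and 1 to 2 when 1 library was left out (2 without 10 µM replicate 3). Of all genes, 4.87%, 19.1% and 4.01% were called at 5 µM, at 10 µM and between the doses in the main test. With no fold limit, these shares were 10.2%, 34.3% and 8.4%. Among the other lists, the 4 calls at 5 µM ranged from 3 to 4 when 1 library was left out. Their 10 calls at 10 µM became 19 with no fold limit and ranged from 7 to 11. The count of 1 between the doses, TGFBR2, became 2 with upper-quartile factors, 0 with only the 2 groups compared (14 at an unadjusted p under 0.05), 5 with no fold limit, and 0 to 3 when 1 library was left out (0 without any 5 µM library, 3 without 10 µM replicate 1 or 2). With the replicate block, the members called numbered 0, 4 and 1 at 5 µM, at 10 µM and between the doses. In 9 of 18 checks a library was closest to its own number among the 3 libraries of another group.

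Of 720 single-gene values under an alternative, 682 kept direction and side of the threshold, 21 lost the call, 13 gained it and 4 reversed. The reversed values were KLF10 at 10 µM against DMSO without 10 µM replicate 2 (-0.053, in a range of -0.053 to 0.25 over libraries left out), and, at 10 µM against 5 µM, KLF3 without 10 µM replicate 1 (0.17, range -0.25 to 0.17), KLF16 without 5 µM replicate 1 (-0.072) and KLF16 without 10 µM replicate 1 (-0.16). The cause was not tested. KLF12 lost its call in 8 of 18 alternatives and KLF15 in 5 of 18. KLF2, at 5.37 to 17.0 CPM, and KLF11, at 3.00 to 8.35 CPM, were the members with the fewest reads.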
